A study of Homo sapiens with 4 samples.

Results

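The genes described here set the flow of carbon through the fructose phosphate step of glycolysis and its reverse in gluconeogenesis. The list holds 3 phosphofructokinases (PFKL, PFKM, PFKP), 3 bifunctional PFKFB enzymes (PFKFB2, PFKFB3, PFKFB4) and 4 genes of gluconeogenesis (FBP1, PCK1, PCK2, PC). Members were taken by gene symbol from a count table with 1 row per RefSeq mRNA accession. Of the 10 listed genes 8 had rows, 14 of 14540 rows and 8 of 12154 gene symbols in all. PFKFB3 and FBP1 were not analysed here.

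RNA came from PLC/PRF/5 cells, an established line of human hepatocellular carcinoma grown in high-glucose medium. There were 4 libraries, 2 of control cells (titled NC) and 2 of cells with lentiviral knockdown of USP22, a ubiquitin protease of the SAGA coactivator complex. Both groups were hypoxic, since every sample had spent 48 h in 1% oxygen with 5% carbon dioxide, and no normoxic library was analysed here. The labels do not give the hairpins used, nor whether the libraries of a group came from separate cultures, so p-values measure the spread between these libraries, which may be technical.

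Phosphofructokinase commits sugar to glycolysis by adding a second phosphate to fructose phosphate. It has a liver-type (PFKL), a muscle-type (PFKM) and a platelet-type (PFKP) subunit, which assemble into tetramers. PFKFB enzymes make and remove a regulatory fructose bisphosphate that activates phosphofructokinase and inhibits fructose bisphosphatase, the enzyme encoded by FBP1 that runs the step backwards. In liver, gluconeogenesis starts when pyruvate carboxylase (PC) makes oxaloacetate in mitochondria and a phosphoenolpyruvate carboxykinase, cytosolic (PCK1) or mitochondrial (PCK2), converts it to phosphoenolpyruvate. Low oxygen is known to raise several glycolytic genes and PFKFB genes through hypoxia-inducible factors.

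Libraries held 15027209 to 17194929 counts. USP22 itself was counted 46513 and 41607 times in controls against 5438 and 7683 times after knockdown, as the labels state. Hepatocyte-lineage markers were present as a set, with 12 of 12 listed genes tested, though HNF4A was barely counted in controls. The summed level of the markers (counts scaled to the library total, CPM) was 27409 to 30515 CPM in control and 35434 to 45334 in knockdown libraries. Of these markers 5 rose (FGB, AFP, APOB, APOH and KRT18), 0 fell and 7 did not pass. Over all tested genes 9.95% were called higher and 11.3% lower. DESeq2 and limma-voom also called 5 markers higher and 0 lower. At an unadjusted p under 0.05 edgeR counted 7 markers higher and 1 lower, and the share of all genes at that threshold was not counted. The larger sum after knockdown is mostly APOB, at 10167 CPM in controls against 22164 CPM, whereas TF, the most abundant marker in controls, was at 16604 against 14778 CPM and ALB at 722 against 644 CPM, neither passing. HNF4A had 1 and 5 counts in controls against 23 and 18 after knockdown. It was therefore tested only through its knockdown counts, and it did not pass. The part of these differences in the results below was not tested. Of 12 markers of fibroblasts, endothelium, leucocytes and red cells 7 had rows, summing to 40.7 and 41.0 CPM in control and 41.4 and 51.9 in knockdown libraries. Among the 5 of them tested, PECAM1 rose (1.04 ± 0.27, adjusted p = 0.0147) and HBB fell (adjusted p = 0.000933). HBB had 45 and 40 counts in controls against 0 and 1 after knockdown, so it was tested only through its control counts. In bulk RNA, fewer expressing cells and less RNA per cell cannot be told apart.

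Only part of each gene was seen in most cases. Beside the number of RefSeq mRNA accessions that a current gene table gives, the rows analysed were 1 of 2 for PFKL, 3 of 20 for PFKM, 2 of 12 for PFKP, 2 of 2 for PFKFB2, 2 of 6 for PFKFB4, 2 of 4 for PCK2, 1 of 9 for PC and 1 of 1 for PCK1. Levels are therefore not compared between genes. A level is given as CPM, the count scaled to a TMM-normalized library size, and a change as the log2 fold change of knockdown against control ± its standard error from edgeR's quasi-likelihood test. "Fell" and "rose" stand for a Benjamini-Hochberg adjusted p under 0.05 over all features of the fit.

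Both genes that fell, PFKL and PFKFB4, are shown here by the 250 bases before their RefSeq start sites, because they moved in the same direction. Capitals mark matches to the core of the hypoxia response element, searched as ACGTG or GCGTG on both strands (CACGT or CACGC on the strand printed). The windows are those of RefSeq on GRCh38.p14, chr21:44299803-44300052 on the plus strand for PFKL and chr3:48556804-48557053 on the minus strand for PFKFB4, written 5′ to 3′ along the gene.
PFKL: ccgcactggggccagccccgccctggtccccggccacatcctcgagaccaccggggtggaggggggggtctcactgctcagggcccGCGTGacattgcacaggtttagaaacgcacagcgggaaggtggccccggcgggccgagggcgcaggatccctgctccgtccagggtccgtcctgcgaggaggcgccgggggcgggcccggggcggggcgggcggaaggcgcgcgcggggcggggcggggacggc
PFKFB4: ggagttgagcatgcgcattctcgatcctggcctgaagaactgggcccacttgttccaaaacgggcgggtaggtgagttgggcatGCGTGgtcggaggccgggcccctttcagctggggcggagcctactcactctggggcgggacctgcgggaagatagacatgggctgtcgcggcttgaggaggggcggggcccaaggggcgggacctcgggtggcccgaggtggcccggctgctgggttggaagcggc
Each window held 1 match, GCGTG, that began 164 bases before the start in PFKL and 166 bases before it in PFKFB4. Such a match stood in 43.2% of 35116 RefSeq windows of the same length, and in 9 of the 20 windows that matched 8 listed genes by symbol. Matches stood in 1 of 7 windows of PFKM, 2 of 4 of PFKP, 1 of 3 of PC, 0 of 1 of PCK2, 2 of 2 of PFKFB3 and 1 of 1 of FBP1, so genes that were not called or not analysed held them too. PCK1 and PFKFB2 were not matched.

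With rows summed per gene, 2 of the 8 members fell, 0 rose and 6 did not pass. In the same fit 11.3% of 10832 genes were called lower and 9.95% higher. Both alternative tools, DESeq2 and limma-voom, also called 2 lower and 0 higher. At an unadjusted p under 0.05 edgeR counted 3 lower and 1 higher, the additional ones being PCK2 and PFKM. The share of all genes at that unadjusted threshold was not counted, so these numbers have no background beside them. The groups did not overlap for 5 members, against 61.3% of all genes. The median log2 fold change of the members was −0.50 and that of all genes 0.01.

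**Figure D1:**
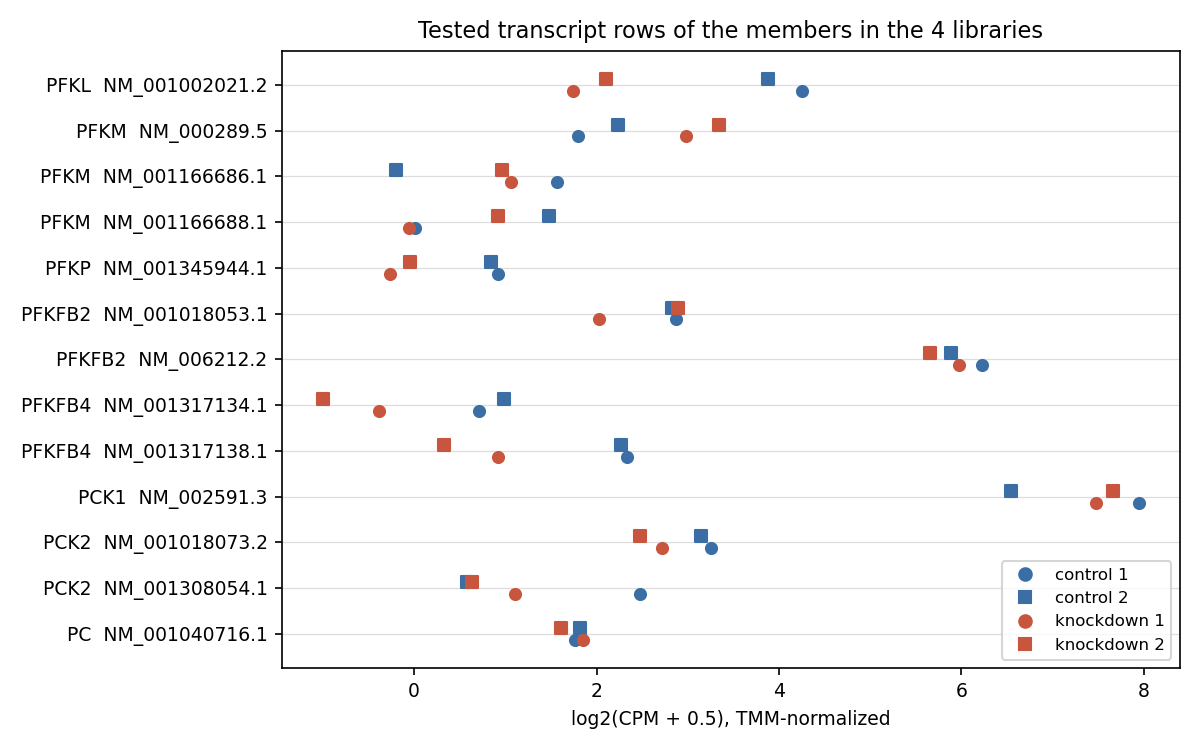
Level of each of the 13 tested transcript rows in the 4 libraries, as log2(CPM + 0.5). Circles and squares are replicates 1 and 2 of control (blue) and knockdown (red). The groups stand clear of each other in 6 rows, those of PFKL, PFKP and PFKFB4, the first PFKM row and the first PCK2 row, while the PCK1 control libraries lie at both ends of its range.

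Among the phosphofructokinases, PFKL, the liver-type subunit, fell. Its row (NM_001002021.2) had 295 and 230 counts in controls against 43 and 65 after knockdown. Every knockdown value lay below every control value. Summed over the gene the level went from 16.4 ± 3.25 to 3.33 ± 0.683 CPM (mean ± SD, n = 2), or 20.4% of what controls had. The log2 fold change was −2.29 ± 0.32, a 4.89-fold decrease (adjusted p = 0.000265). Over 10 alternatives the adjusted p ranged from 2.25e-08 to 0.00048 and the log2 fold change from −2.51 to −2.08.

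PFKM, the muscle-type subunit, went the other way in its largest row. NM_000289.5 had 47 and 68 counts in controls against 112 and 165 after knockdown, and the groups did not overlap. The row rose from 3.59 ± 0.875 to 8.51 ± 1.56 CPM, a 2.37-fold increase (1.25 ± 0.35, adjusted p = 0.0268). Without control replicate 1 its adjusted p was 0.117 and without knockdown replicate 2 it was 0.119, over a range of 0.00291 to 0.119 in 10 alternatives.

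The other PFKM rows held few reads. NM_001166686.1 had 39 and 6 counts in controls against 24 and 25 after knockdown. NM_001166688.1 had 8 and 37 counts in controls against 7 and 24 after knockdown. In both rows the control libraries lay on either side of at least one knockdown library, and neither passed (adjusted p = 0.948 and 0.691).

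With its 3 rows summed PFKM had 94 and 111 counts in controls against 143 and 214 after knockdown. The groups did not overlap, but the change of 0.79 ± 0.30 did not pass (adjusted p = 0.0816). It passed without knockdown replicate 1 (adjusted p = 0.0364) and with the replicate number as a block (adjusted p = 0.0488), over a range of 0.0364 to 0.354 in 10 alternatives.

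NM_000289.5 made up 50% and 61.3% of the PFKM counts in control libraries and 78.3% and 77.1% in knockdown libraries. The share was higher in both knockdown libraries. Set against the change of the gene, however, the row's log2 fold change differed by 0.47, which did not pass (diffSpliceDGE adjusted p = 1.00). Over all members 9 rows of 4 genes could be set against their gene in this way. By diffSpliceDGE 0 of them passed, and 0 had an unadjusted p under 0.05, against 0.242% of 2890 rows called in the whole table. In simulated counts this test recovered 16.05% of well-counted rows changed 4-fold, so a difference between isoforms could easily have been missed. Recovery for rows with few counts was not measured.

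PFKP, the platelet-type subunit, held few counts in its 2 rows, which stand for 2 of 12 accessions. NM_001345944.1 had 22 and 21 counts in controls against 5 and 8 after knockdown, without overlap, and the change of −1.73 ± 0.77 did not pass (adjusted p = 0.141). That row was tested only through its control counts. NM_001323072.1, with 4 and 10 counts in controls against 6 and 11 after knockdown, was too low to be tested. Summed, PFKP had 26 and 31 counts in controls against 11 and 19 after knockdown (−0.93 ± 0.64, adjusted p = 0.335).

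Ratios of phosphofructokinase counts within a library are given as a description. Counts of PFKL were 3.14 and 2.07 times those of PFKM in the control libraries and 0.301 and 0.304 times in the knockdown libraries. The ratio of PFKL to PFKP was 11.3 and 7.42 in control and 3.91 and 3.42 in knockdown libraries. Neither ratio overlapped between the groups, and the differences between the changes of these genes were not tested. PFKL, which was called lower, is in both ratios, and how often ratios of other gene pairs stand apart was not counted. The ratios do not measure relative abundance, since rows cover different parts of each gene, and with 2 libraries against 2 an exact two-sided permutation test cannot give a p below 0.333.

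**Figure D2:**
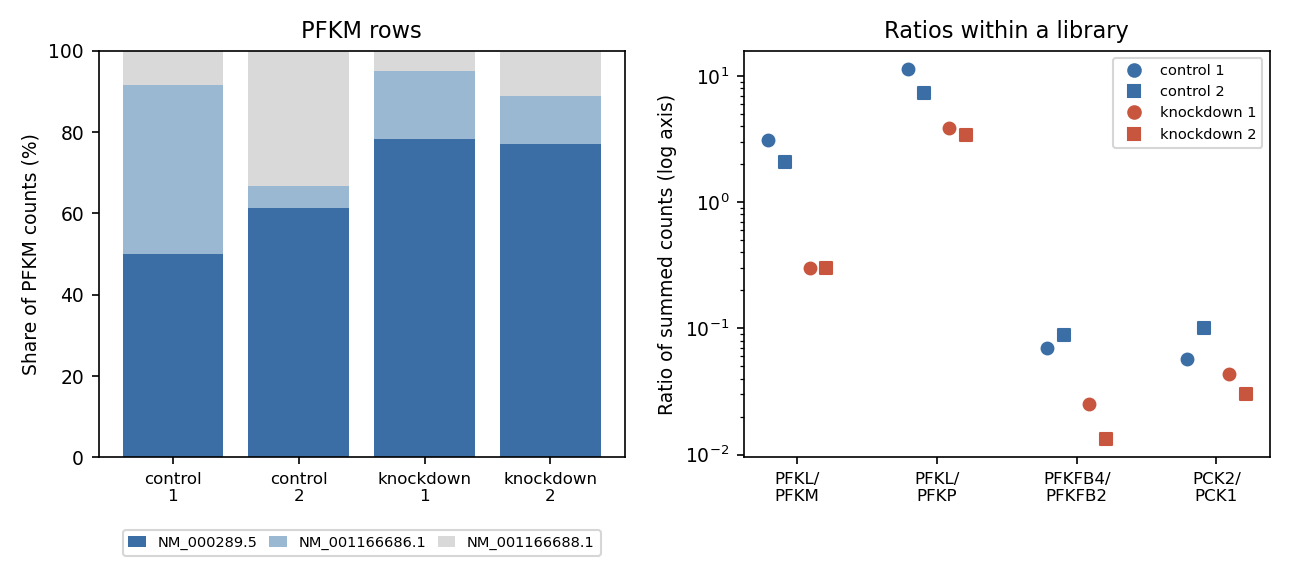
Left, share of the PFKM counts (%) in each of its 3 rows, per library. Right, ratio of summed counts of 4 pairs of members in each library, on a log axis. NM_000289.5 holds 50% and 61.3% in control against 78.3% and 77.1% in knockdown, and the PFKL to PFKM ratio drops from 3.14 and 2.07 to 0.301 and 0.304.

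The PFKFB genes differed in what could be shown. PFKFB4, the isoenzyme of testis that is also known as a hypoxia-induced gene in tumour cells, fell. Its summed counts were 90 and 94 in controls against 25 and 13 after knockdown, without overlap. The level went from 5.72 ± 0.0367 to 1.21 ± 0.631 CPM, or 21.2% of what controls had. This was a 4.74-fold decrease (−2.25 ± 0.47, adjusted p = 0.00464). Over 10 alternatives the adjusted p ranged from 9.01e-05 to 0.0128. Without knockdown replicate 1 the log2 fold change was −2.88 and without knockdown replicate 2 it was −1.77.

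Both PFKFB4 rows fell. NM_001317138.1 had 72 and 70 counts in controls against 21 and 13 after knockdown (−2.05 ± 0.49, adjusted p = 0.0112). NM_001317134.1 had 18 and 24 counts in controls against 4 and 0 after knockdown (−3.29 ± 1.07, adjusted p = 0.0483). This second row was tested only through its control counts, so its call adds little to that of the gene. The call of the second row was lost in 5 of 9 alternatives, with adjusted p-values up to 0.315, and that of the first in 1, without knockdown replicate 2 (adjusted p = 0.051).

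PFKFB2, the heart-type isoenzyme, also expressed in other tissues, did not pass. Its summed counts were 1290 and 1057 in controls against 998 and 977 after knockdown, or 73.1 ± 12.02 and 61.7 ± 6.20 CPM. The higher of the knockdown levels, 66.1 CPM, lay above the lower control level of 64.6 CPM. The change was −0.24 ± 0.19 (adjusted p = 0.416). NM_006212.2 held 87.8% to 94.6% of the counts (−0.25 ± 0.20, adjusted p = 0.449). NM_001018053.1 had 108 and 107 counts in controls against 54 and 119 after knockdown (−0.35 ± 0.37, adjusted p = 0.573), so its knockdown libraries stood on both sides of the control.

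Relative to PFKFB2, PFKFB4 had 0.0698 and 0.0889 times the counts in control and 0.0251 and 0.0133 times in knockdown libraries. These values did not overlap, and the difference between the changes of both genes was not tested.

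**Figure D3:**
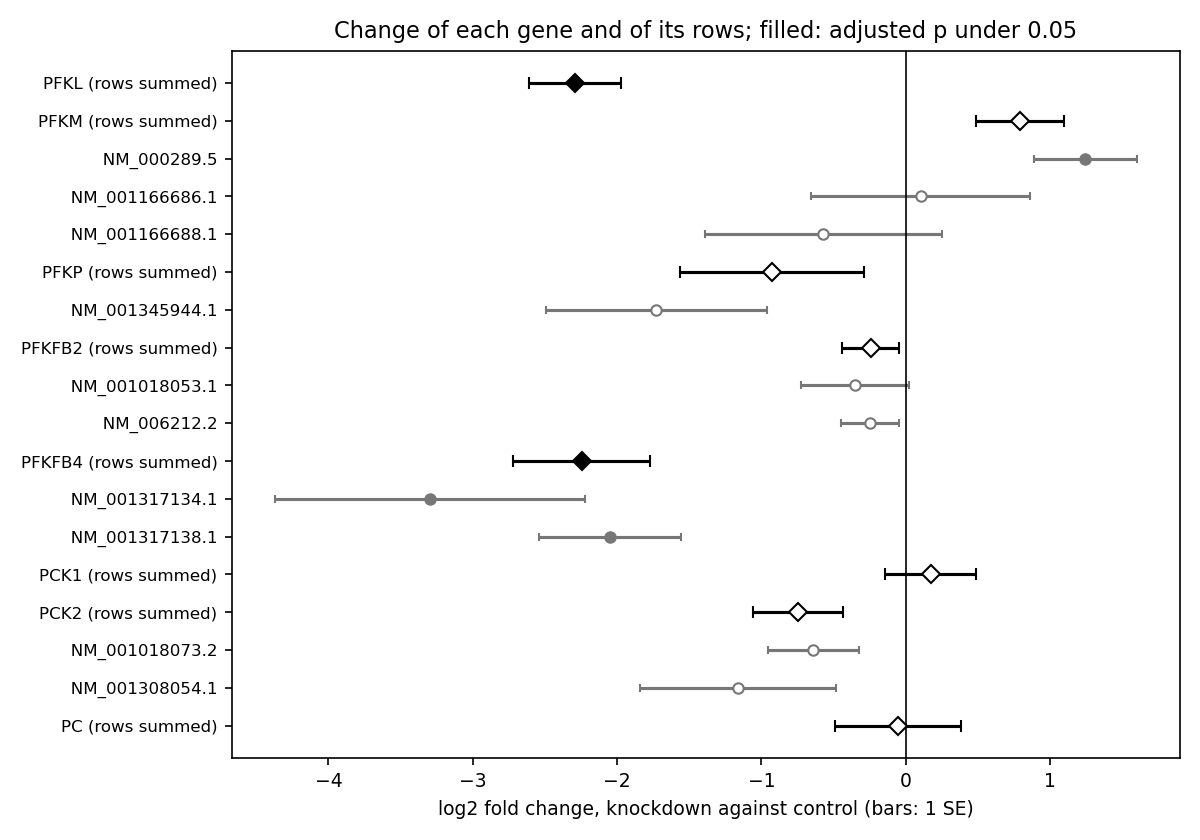
Log2 fold change of knockdown against control for each gene with its rows summed (diamonds) and, for genes with several rows, for each tested row (circles), with bars of 1 SE. Filled symbols have an adjusted p under 0.05. PFKL and PFKFB4 lie near −2.29 and −2.25, and NM_000289.5 of PFKM lies at 1.25.

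Of the 3 gluconeogenesis genes with rows 0 passed in edgeR, DESeq2 or limma-voom, and 1, PCK2, had an unadjusted p under 0.05 in edgeR. PCK1, the cytosolic carboxykinase that sets the pace of hepatic gluconeogenesis and a gene with a single RefSeq mRNA accession, had 3900 and 1498 counts in controls against 2686 and 3460 after knockdown. Its knockdown libraries fell between the control libraries. The level was 169 ± 110 CPM in controls against 190.4 ± 17.8 CPM after knockdown (0.17 ± 0.31, adjusted p = 0.752).

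The gap between the PCK1 control libraries decided its value. Control replicate 1 was 2.69 times control replicate 2 in CPM, and of 5761 genes with a mean of at least 10 CPM 6 had a larger gap between these libraries. The median gap was 1.13-fold, and that of PCK1 between the knockdown libraries 1.14-fold. Without control replicate 1 PCK1 was higher in knockdown cells (1.03, adjusted p = 0.00349), and without control replicate 2 it was lower without passing (−0.36, adjusted p = 0.375). A change of PCK1 with USP22 knockdown could thus be given neither a direction nor a size from these libraries.

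PCK2, the mitochondrial carboxykinase, had 223 and 151 summed counts in controls against 117 and 105 after knockdown. Both knockdown libraries were lower than both control libraries. The change of −0.75 ± 0.31 did not pass (adjusted p = 0.112), over a range of 0.0587 to 0.545 in 10 alternatives. Its larger row, NM_001018073.2, had 143 and 135 counts in controls against 92 and 87 after knockdown (−0.64 ± 0.32, adjusted p = 0.185). In NM_001308054.1 control replicate 1 stood apart, with 80 counts against 16 in control replicate 2 and 25 and 18 in the knockdown libraries (−1.16 ± 0.68, adjusted p = 0.265). Without control replicate 1 the sign of that row turned (0.45), and without control replicate 2 it was called lower (−1.89, adjusted p = 0.011).

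PC, which makes the oxaloacetate used by both carboxykinases, had 46 and 49 counts in controls against 47 and 44 after knockdown from 1 of its 9 accessions. The change was −0.05 ± 0.44 (adjusted p = 0.95). At these counts 1 standard error to either side spans −0.49 to 0.38 on the log2 scale, so larger changes are not excluded.

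Counted by row, 3 member rows fell and 1 rose among the 13 tested. Of those that fell, NM_001317134.1 of PFKFB4 was tested only through its control counts. Over all rows tested, 10.2% of 12337 rows were called lower and 8.49% higher. Groups did not overlap in 6 of the 13, against 59.6% of all rows. By the authors' deposited q-values, 4 of the 14 rows were under 0.05, against 22.1% of all rows. These are NM_001002021.2 of PFKL (log2 fold change −2.29, q = 5.18e-11), NM_000289.5 of PFKM (1.27, q = 0.00442), NM_001317138.1 of PFKFB4 (−2.04, q = 0.000887) and NM_001317134.1 of PFKFB4 (−3.34, q = 0.0259) in the authors' deposited table.

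Other genes of the pathway were read from 3 lists, with rows summed per gene. How much of each listed gene its rows cover was not examined, so a low count need not mean low expression. Of 26 symbols for the other one-way steps and the entry of glucose and pyruvate 13 were tested. Calls were 3 lower and 1 higher, 9 did not pass, and the median log2 fold change was −0.12. Some of those not passing held few counts, such as LDHA and PKM, named after their values were seen. LDHA had 26 and 38 counts in controls against 34 and 30 after knockdown, and PKM 50 and 42 against 31 and 21. For such genes a change could easily have been missed. Over all genes 11.3% were called lower and 9.95% higher, which puts the 1 higher of 13 near the background. HK2, the hexokinase that traps glucose upstream of phosphofructokinase, fell from 321 ± 0.904 to 30.6 ± 15.3 CPM (−3.39 ± 0.28, adjusted p = 4.94e-06). HKDC1, a related hexokinase, fell (−1.04 ± 0.18, adjusted p = 0.00131). GOT2, the mitochondrial aspartate aminotransferase, rose (0.62 ± 0.21, adjusted p = 0.0468).

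TIGAR, which removes the regulatory fructose bisphosphate that PFKFB enzymes make, was the third to fall and is named after its values were seen (−0.61 ± 0.19, adjusted p = 0.036). G6PC, the glucose phosphatase that ends gluconeogenesis, chosen in the same way, had 209 and 174 counts in controls against 152 and 340 after knockdown. Its knockdown libraries lay on both sides of the control, and it did not pass (0.33 ± 0.32, adjusted p = 0.508).

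For the reversible steps that glycolysis and gluconeogenesis share, 12 of 13 genes were tested. Calls by edgeR were 5 lower and 0 higher, 7 did not pass, and the median was −0.68, beside 11.3% lower and 9.95% higher over all genes. DESeq2 and limma-voom also called 5 lower and 0 higher. At an unadjusted p under 0.05 edgeR and DESeq2 each counted 7 lower and 0 higher, and limma-voom 8 lower and 1 higher. No share of all genes was counted at that unadjusted threshold. ENO2, the neuronal enolase, fell from 85.4 ± 3.97 to 5.41 ± 1.34 CPM (−3.98 ± 0.24, adjusted p = 8.25e-07). ALDOC, an aldolase acting on the product of phosphofructokinase, fell from 853 ± 149 to 217 ± 46.3 CPM (−1.97 ± 0.19, adjusted p = 1.74e-05). The others that fell were PGAM2, PGK1 and ENO1, named after their values were seen, with log2 fold changes of −1.30, −0.95 and −0.68.

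Of 20 listed regulators of these genes 15 were tested, and 1 was called higher, 1 lower and 13 neither, around a median of 0.14. These shares are near those of all genes, with 9.95% higher and 11.3% lower. HNF4A stands on this list and on that of the hepatocyte markers. KLF15, a transcription factor known to promote gluconeogenic genes, had 438 and 277 counts in controls against 951 and 1589 after knockdown and rose (1.81 ± 0.26, adjusted p = 0.000397). EPAS1, which encodes an alpha subunit of hypoxia-inducible factor, fell (−0.44 ± 0.15, adjusted p = 0.0494), a call that was lost with DESeq2, which called 0 of the list lower.

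**Figure D4:**
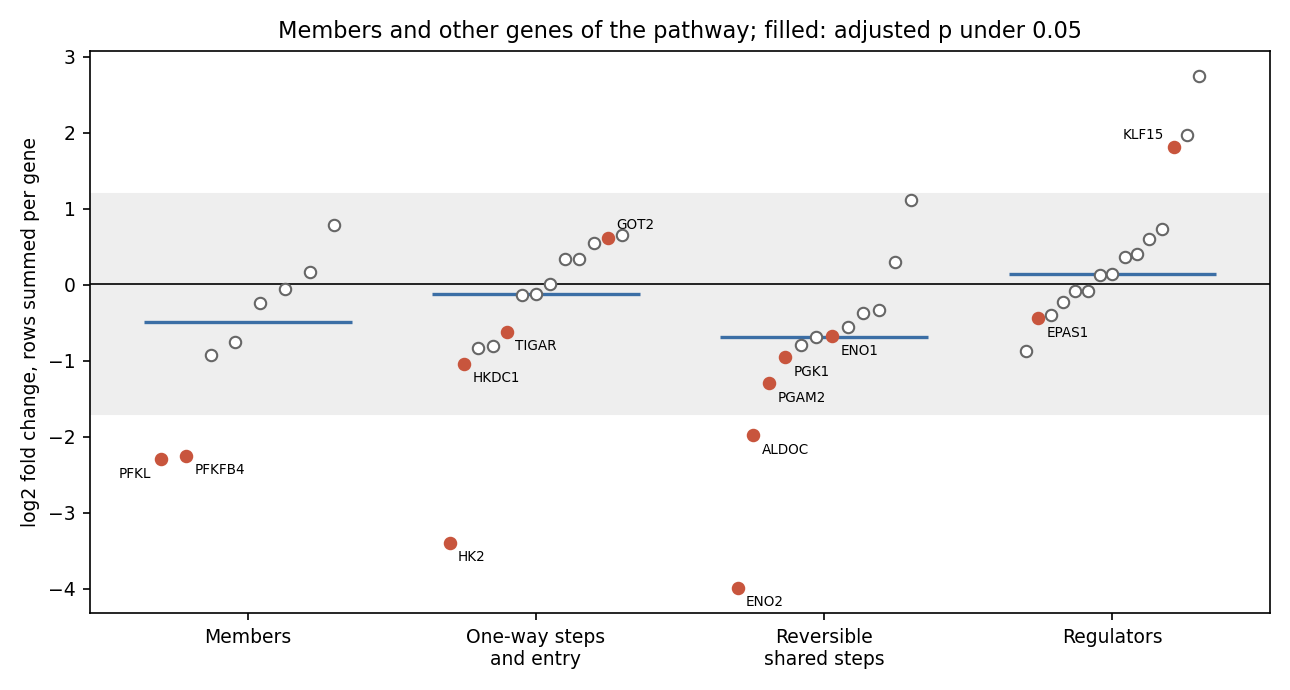
Log2 fold change per gene, rows summed, for the 8 members and the tested genes of the 3 pathway lists. Filled points have an adjusted p under 0.05 and carry names, blue lines are medians of each set, the black line is the median of all 10832 tested genes and the grey band spans their 5th to 95th percentile (−1.70 to 1.198). PFKL and PFKFB4 lie below the band, as do HK2, ENO2 and ALDOC.

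The genes with the profile most like that of PFKL, the member with the largest fall, were ALDOC, BNIP3 and HBEGF. Likeness was the Euclidean distance between centred log2 CPM values over the 4 libraries, among genes averaging 10 CPM or more, and came to 0.169, 0.299 and 0.328. ALDOC had 958 and 748 CPM in control and 184 and 249.9 CPM in knockdown libraries. For PFKM, the member with the largest positive change though not a call, the nearest were MRPS26, CISD3 and H2AFZ at distances of 0.0396, 0.04 and 0.0492. Their log2 fold changes were 0.75, 0.78 and 0.73. With 4 libraries in 2 groups, likeness mostly reflects the size of the difference between the groups.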

How the data were processed

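RNA of 2 control and 2 USP22-knockdown samples was compared, grouped by sample title. The authors deposited raw counts per RefSeq mRNA accession, and beside them a log2 fold change with its p-value and adjusted q-value. HISAT2 2.1.0, HTSeq, bcl2fastq and the build hg19 are listed, without roles or settings, per the submitters' processing notes. The kit named in the labels' protocols (NEBNext Ultra RNA) does not mark strand, so reads of overlapping antisense genes are not separated. The handling of reads shared by isoforms is not stated in those sources.

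Counts were analysed per row and summed per gene symbol, after 29 symbols held as dates had been restored from a RefSeq table (GRCh38.p14) that matched 98.5% of accessions. Because that build is not the authors', it was used for names, accession numbers and RefSeq promoter windows only. Filtering was by filterByExpr (minimum count 10), which left 12337 of 14540 rows and 10832 of 12154 genes, 13 of 14 member rows and all 8 member genes. edgeR 4.0.16 (TMM, quasi-likelihood test, no covariate, R 4.3.3) compared knockdown with control, with Benjamini-Hochberg adjustment over all features and a threshold of 0.05. Differences of a row from its gene were tested with diffSpliceDGE. The biological coefficient of variation was 20.6% for genes. In simulated counts for 10788 genes, changes were put only into well-counted genes, 100 per fold. Changes of 4-fold were recovered in 98% and of 2-fold in 17%, so 2-fold changes were often missed. Recovery for genes with few counts, such as PFKP and PC, was not measured. Replicates differed by more than counting noise (chi-square per degree of freedom 17.9 in control and 33.7 in knockdown). DESeq2 1.42.0, limma-voom (limma 3.58.1), other scaling and filters, a replicate block and leaving out each library were alternatives.

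Named were all members and, per pathway list, up to 2 called genes with the largest change in each direction, or the 2 with the highest mean where none passed. The members and lists were chosen with earlier results of these data known.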

Additional observations from a re-analysis of the deposited data

How the results depend on the processing

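PFKL and PFKFB4, rows summed, stayed called lower in all 10 alternatives. Without a library in turn, 0 to 1 member genes were called higher, 2 were called lower each time, 0 to 1 member rows were called higher and 1 to 3 lower. Under a replicate block 1 member gene was called higher, PFKM, against 0 without it. A filter of 5 CPM left 1 member row called lower, since it removes both PFKFB4 rows. That filter kept PFKL and PFKFB4, rows summed, only through their control libraries, and NM_000289.5 of PFKM only through its knockdown libraries. Calls under it are therefore no independent check of these changes. Over all features, leaving out a library gave 685 to 1340 rows and 636 to 1332 genes called higher, where the lowest came without control replicate 1, against 1047 and 1078 with all libraries. The block gave 1672 rows called higher. Rows that differed from their gene numbered 7, 29 with the block and 0 to 6 without a library. Deviations of same-numbered libraries correlated at 0.125 over genes and 0.112 over rows, and no label says that the numbers pair samples. Fits with the block or without a library have fewer residual degrees of freedom, and an arm left with a single library is assumed to vary like the other. The cause of these shifts was not tested.

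Signs turned without a library for values that were not called. The log2 fold changes without a library were −0.36 to 1.03 for PCK1 as a gene and −0.36 to 1.04 as a row. For PC they were −0.18 to 0.086 as a gene and −0.17 to 0.076 as a row. They were −0.90 to 0.083 for NM_001018053.1 of PFKFB2, −0.67 to 2.02 for NM_001166686.1 and −1.57 to 0.90 for NM_001166688.1 of PFKM, and −1.89 to 0.45 for NM_001308054.1 of PCK2. That of NM_001317134.1 of PFKFB4 ran from −7.42 to −2.27, the first without knockdown replicate 1, which leaves a library with 0 counts. Low counts limit PFKP, PC, PFKFB4, the smaller PFKM rows and NM_001308054.1 of PCK2, at under 100 counts a library. Others were under 100 in some libraries, such as PFKL after knockdown, with 43 and 65 counts. The cause of the low counts was not tested.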
